A study of Mus musculus with 4 samples.

Results

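Proteins and RNAs cross the nuclear envelope through the nuclear pore, a ring of nucleoporins, and larger cargo needs transport receptors to pass. The 50 genes described here encode these receptors (importins and exportins), the Ran system that drives them and the nucleoporins themselves. They were picked by name, in part selected on a measured value, because the exportin gene Xpo4 had been seen lower with DKK2 in these same libraries. All 50 were present among the 37305 rows of the deposited table, 1 of them (Ipo11) on 2 rows, and the row with the higher mean was used. All 50 passed the filter on low values, among 12275 genes tested.

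The data are RNA-seq profiles of primary natural killer (NK) cells, cytotoxic innate lymphocytes, taken from spleens of C57BL/6 mice at postnatal day 56. Every culture received murine IL-15, the cytokine on which NK cells depend, at 50 ng/ml for 24 hours. The DKK2 group (2 libraries) then had 200 ng/ml DKK2, a secreted protein that binds Wnt co-receptors, for a further 24 hours, and the control group (2 libraries) had mock treatment for that time. The comparison asks how DKK2 changes gene expression in these cells. Nothing in the sources used here says whether the libraries of a group came from separate animals or cultures, so errors cover the spread between libraries, which may be technical.

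Transport works as a cycle. Importins bind cargo in the cytoplasm and let it go in the nucleus when they meet Ran bound to GTP, while exportins bind cargo together with Ran-GTP and release it in the cytoplasm after GTP hydrolysis. The exchange factor Rcc1 sits on chromatin and Rangap1 acts in the cytoplasm, and this separation gives the cycle its direction. In lymphocytes, transport of transcription factors such as NF-kB and STAT proteins into the nucleus is part of the response to cytokines.

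Levels are given in FPKM, fragments scaled by transcript length and by library total, which can be compared between genes. Differences are on the log2(FPKM + 1) scale, DKK2 minus control, and each carries the SE (standard error) from limma. They understate the change of low genes. The libraries held between 18951 and 20549 rows above 0. By the steps among the lowest values, the other libraries had 0.351 to 0.4 of the depth of control replicate 1. The 10 NK markers summed to 35457 and 23160 FPKM in the DKK2 libraries and to 26998 and 27796 FPKM in the controls. Much of each sum was Gzma, at 24308 and 12092 FPKM after DKK2, against 9890 and 13351 FPKM after mock treatment. In the mean of log2 values 7 of these markers were higher and 3 lower. In 2 of them, Prf1 and Gzmb, both DKK2 libraries lay below both controls, where 14.8% of all genes tested did.

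Transcripts of other cell types also differed between the libraries. The markers of monocytes and macrophages summed to 702.0 and 393.2 FPKM in the DKK2 libraries and to 27.9 and 233.7 FPKM in the controls, with 9 of 9 tested markers higher in the mean. Neutrophil markers summed to 3523 and 126.0 FPKM after DKK2, against 1.06 and 64.9 FPKM after mock treatment (8 of 8 higher), B cell markers to 388.4 and 423.4 FPKM after DKK2, against 6.4 and 201.4 FPKM after mock treatment (7 of 7 higher). T cell markers summed to 283.6 and 249.8 FPKM after DKK2, against 91.2 and 191.8 FPKM after mock treatment (7 of 8 higher). Not every library pair ran this way. DKK2 replicate 1 lay below control replicate 2 in 4 of the 8 T cell markers (Cd4, Cd8a, Cd8b1 and Cd28) and in 4 of the 7 B cell markers. In control replicate 1, 5 of 10 neutrophil markers (Camp, Ltf, Elane, Retnlg and Cxcr2) were listed at 0.

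Dendritic cell markers summed to 31.2 and 26.4 FPKM after DKK2, against 36.9 and 15 FPKM after mock treatment (2 of 2 tested higher in the mean), erythroid and platelet markers to 9.73 and 22.7 FPKM after DKK2, against 0.356 and 16.3 FPKM after mock treatment (4 of 4 higher). Of the 4 erythroid and platelet markers tested, 3 were lower in DKK2 replicate 1 than in control replicate 2. The part of these other cells in the members' values was not tested, and in bulk RNA fewer cells of a type cannot be told apart from less RNA per cell.

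Transcripts of most of the 50 members were lower in the DKK2 libraries on average, by a modest amount. None of the other 49 members was called, and for Xpo4 no test is given, so it is not said to be called either. Lower and higher refer here to the mean of log2 values. Of the 50 members, 45 had a log2 fold change below 0, where 56.4% of all genes tested did (60.1% of those with a mean of at least 5 FPKM). In 26 members (52.0%) both DKK2 libraries lay below both controls, and in 1 member (Tpr) both lay above. The groups thus did not overlap in 27 members. Over all genes tested, 14.8% lay below both controls, 11.8% above both and 26.5% without overlap in either direction, and over genes of at least 5 FPKM 16.0% lay below and 10.2% above. The median log2 fold change of the members was -0.33 (quartiles -0.45 and -0.22, median SE 0.28), beside -0.05 over all genes tested. Without Xpo4 the remaining 49 members had the same median of -0.33, with 44 lower and 25 below both controls. Leaving out a library makes groups separate more easily in every gene. Without DKK2 replicate 1, 47 members were lower (50.7% of all genes tested), 44 lay below both controls (34.2%) and 2 above (32.7%). Without DKK2 replicate 2, 39 members were lower (55.4%), 31 lay below both controls (41.8%) and 10 above (32.6%). Without control replicate 1, the library with the lowest marker sums for monocytes, neutrophils, B cells and T cells, 44 members were lower (49.0%), with a median of -0.28. Under median centring of the libraries 41 were lower (48.3%), and Kpna2, Ipo11, Nup35 and Nup85, all close to 0, turned to a higher mean of log2 values. Because the set was picked with this contrast in view, these counts describe it and support nothing further.

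In limma with Benjamini-Hochberg adjustment, 0 of the 49 members other than Xpo4 were called, where 0.0326% of all genes tested were called. Before adjustment, 2 of these 49 (Nup188 and Kpna4) had a limma p under 0.05, where the share over all genes tested was 1.84%. Nothing is read from either count, since the set was picked with this contrast in view. At this group size (2 and 2) the smallest p that exact permutation allows is 0.333, and no such test was run.

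**Figure D1:**
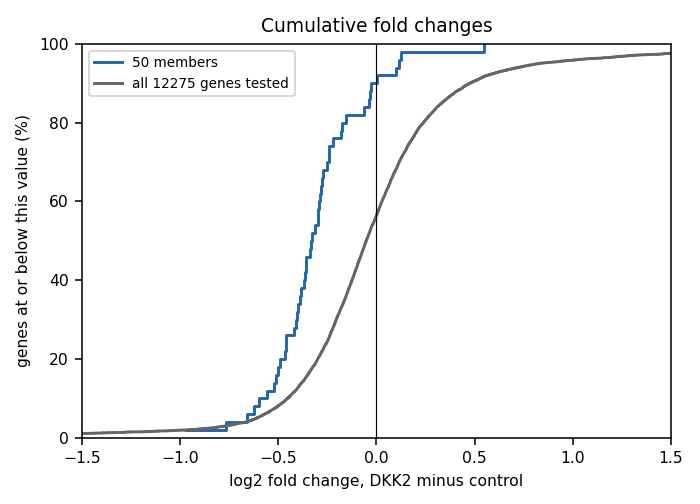
Cumulative share of genes (vertical axis, in percent) at or below each log2 fold change, DKK2 minus control (horizontal axis), for the 50 members and for all 12275 genes tested. The curve of the members runs to the left of the other and crosses 0 with 45 members below it, and Tpr alone makes up its right end at 0.55.

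The 4 library pairs differed in how many members they placed lower. DKK2 replicate 2 lay below control replicate 1 in 48 members (57.3% of all genes tested) and below control replicate 2 in 44 (43.9%). DKK2 replicate 1 lay below control replicate 1 in 35 members (56.2%) and below control replicate 2 in 36 (52.7%). The median differences of the members were -0.33 and -0.38 for DKK2 replicate 2 and -0.30 and -0.28 for DKK2 replicate 1, in the same order of controls. Between the controls the members' median difference was 0.02 (replicate 2 minus replicate 1). The lowest of the 4 libraries was a DKK2 library in 49 members, namely replicate 2 in 30 and replicate 1 in 19, where 63.5% of all genes tested had their lowest value in a DKK2 library. The exception was Tpr, lowest in control replicate 1.

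**Figure D2:**
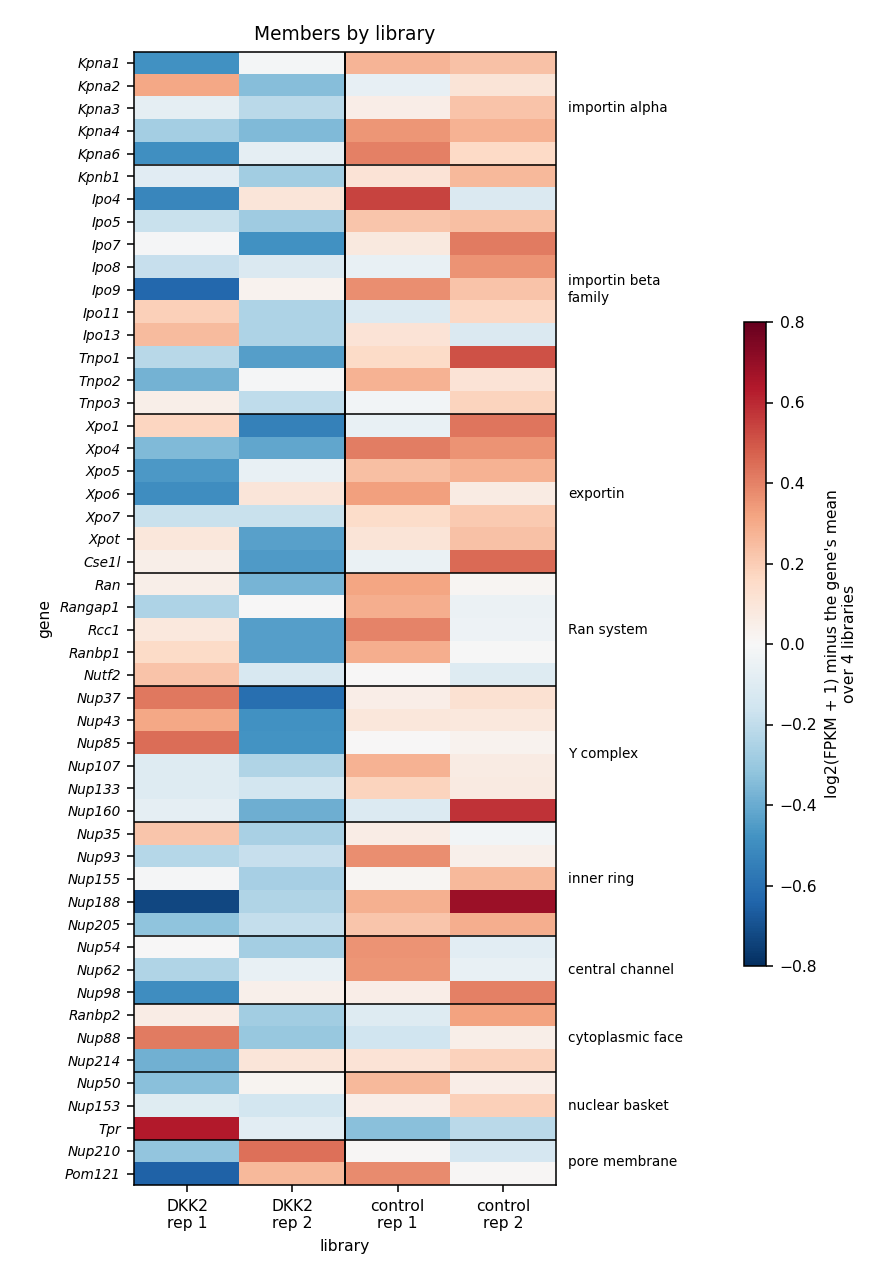
Level of each of the 50 members (rows, by role) in the 4 libraries (columns), as log2(FPKM + 1) minus the gene's own mean over the libraries, blue for lower and red for higher. Blue cells stand mostly in the DKK2 columns, but for many genes in only 1 of them. Examples are Nup37, Nup43 and Nup85 of the Y complex, with red cells in DKK2 replicate 1 and blue cells in DKK2 replicate 2.

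Promoter sequences are shown for members that were lower together, to let their upstream regions be compared. They are the 5 members with the lowest fold changes among those without overlap that had an entry in RefSeq's promoter table (build GRCm38.p6), which held 41 of the 50 members. The other members are Cse1l, Kpna1, Kpna3, Kpna6, Nup35, Nup43, Nup85, Xpo4 and Xpo7. Each line gives the 250 bases before the annotated start, 5′ to 3′ on the gene's strand. Capitals mark matches, on either strand, to the E-box CACGTG (bound by MYC and related factors), an ETS motif CCGGAAG, the CCAAT box, a STAT motif TTCNNNGAA, a TCF/LEF motif ATCAAAG, an NRF1 motif GCGCATGCG and a YY1 motif AAGATGGCG.
Nup188 (chr2:30286166-30286415, plus strand): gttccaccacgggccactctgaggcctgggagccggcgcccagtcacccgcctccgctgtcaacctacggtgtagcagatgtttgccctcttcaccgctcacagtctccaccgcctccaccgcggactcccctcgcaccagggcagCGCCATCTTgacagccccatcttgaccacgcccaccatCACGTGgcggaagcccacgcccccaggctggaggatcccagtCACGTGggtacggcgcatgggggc
Tnpo1 (chr13:98926385-98926634, minus strand): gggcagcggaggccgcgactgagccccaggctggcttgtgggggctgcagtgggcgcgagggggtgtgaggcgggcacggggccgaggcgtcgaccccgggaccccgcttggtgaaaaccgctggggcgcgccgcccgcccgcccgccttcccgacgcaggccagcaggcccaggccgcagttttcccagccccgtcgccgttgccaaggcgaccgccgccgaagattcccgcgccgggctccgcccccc
Kpna4 (chr3:69127093-69127342, minus strand): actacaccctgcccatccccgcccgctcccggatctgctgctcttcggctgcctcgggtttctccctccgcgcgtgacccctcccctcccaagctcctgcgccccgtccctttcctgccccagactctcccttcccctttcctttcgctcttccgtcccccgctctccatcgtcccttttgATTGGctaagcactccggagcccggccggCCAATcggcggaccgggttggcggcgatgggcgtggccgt
Ipo9 (chr1:135430500-135430749, minus strand): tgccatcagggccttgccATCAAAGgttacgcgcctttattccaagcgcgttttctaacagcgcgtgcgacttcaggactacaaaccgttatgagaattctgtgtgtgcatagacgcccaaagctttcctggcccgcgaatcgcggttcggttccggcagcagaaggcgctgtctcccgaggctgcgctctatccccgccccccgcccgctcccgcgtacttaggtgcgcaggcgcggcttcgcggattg
Xpo5 (chr17:46202561-46202810, plus strand): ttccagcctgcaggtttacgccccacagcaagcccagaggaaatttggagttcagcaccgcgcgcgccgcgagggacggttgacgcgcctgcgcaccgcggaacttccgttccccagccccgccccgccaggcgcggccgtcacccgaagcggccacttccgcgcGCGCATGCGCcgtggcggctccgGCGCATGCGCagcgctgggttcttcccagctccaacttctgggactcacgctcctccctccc

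The 5 windows are rich in C and G, from 60.8% in Ipo9 to 78.0% in Tnpo1, and they hold different motifs. Nup188 has a pair of E-boxes and a YY1 match. Xpo5 has NRF1 matches at a pair of places, where the motif and its reverse complement overlap, and Kpna4 has a CCAAT box on each strand. The Ipo9 window shown has a TCF/LEF match, and the Tnpo1 window has none of the 7 motifs. Over the 41 members in the table, the first listed window of each gene had a median of 64.4% C and G, beside 59.6% over the 7536 genes tested that are in the table.

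Some genes, Ipo9 and Tnpo1 among them, have more than 1 annotated start in the table. The first listed window is printed above, while the counts here take a gene as holding a motif where any of its windows does. The E-box was in 8 of the 41 members (19.5%), namely Ipo7, Nup188, Nup54, Nup93, Ran, Ranbp2, Tnpo2 and Xpot. It was in 10.2% of the genes tested and in 6.86% of all 27025 genes of the table. The NRF1 motif was in 5 members (12.2%, beside 3.8% of the genes tested and 1.64% of all genes), those of Nup107, Nup50, Nup62, Ran and Xpo5. The CCAAT box was in 19 (46.3%, beside 41.1% and 37.5%), among them Ipo9 through its other window and not the one printed, the ETS motif in 6 (14.6%, beside 17.7% and 7.83%) and the YY1 motif in 2 (4.88%, beside 1.53% and 0.71%). The STAT motif was in 1 (2.44%, beside 7.44% and 8.13%), Nup107, and the TCF/LEF motif in 2 (4.88%, beside 2.67% and 3.72%), Ipo9 and Nup88. Of the 21 members in the table that lay below both controls, 11 had the CCAAT box, 5 the E-box and 4 the NRF1 motif. The ETS motif was in 2 of these 21, the YY1 motif in 2, the STAT motif in 1 and the TCF/LEF motif in 1. No such share is given for other genes below both controls, so these counts tie no motif to the lower members. Genes with more windows have more chances of a match. These matches describe letters in the windows, and binding was not measured.

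Importin alpha proteins are the adaptors that recognise the classical nuclear localization signal. All 5 had a lower mean log2 value with DKK2 (median -0.50), where 56.4% of all genes tested did. In 4 of them both DKK2 libraries lay below both controls, where 14.8% of all genes tested did. Kpna4, which carries NF-kB subunits among other cargo, was at 50.0 and 47.1 FPKM in the DKK2 libraries and at 77.5 and 73.5 FPKM in the controls (-0.63 ± 0.23 SE). Both groups were tight. Over the 4 libraries, the pattern of Kpna4 was the one most like that of Xpo4, on which the set was partly selected. Kpna1 was at 39.0 and 54.3 FPKM after DKK2, against 66.5 and 64.9 FPKM after mock treatment (-0.50 ± 0.28). Kpna6, its close relative, was at 14.9 and 20.3 FPKM after DKK2, against 28.5 and 24.0 FPKM after mock treatment (-0.56 ± 0.28). In both of these genes the lowest library was DKK2 replicate 1. Kpna3, the close relative of Kpna4, was at 52.4 and 47.3 FPKM after DKK2, against 57.1 and 64.7 FPKM after mock treatment (-0.28 ± 0.24).

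Kpna2, the adaptor most tied to dividing cells, was the exception among these. It was at 13.0 and 7.90 FPKM after DKK2, against 9.77 and 11.1 FPKM after mock treatment (-0.03 ± 0.32), so the DKK2 libraries spanned the controls, and the mean FPKM was 10.4 in both groups. Its level may be uncertain, since the mouse genome holds a processed copy named Kpna2-ps.

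The importin beta family carries cargo through the pore, directly or with an importin alpha. Of its 11 import receptors, 10 had a lower mean log2 value with DKK2 (median -0.38). Both DKK2 libraries lay below both controls in 7 of them, beside 14.8% of all genes tested. Kpnb1, importin beta itself and the partner of every importin alpha, was the most abundant member of all. It was at 225.3 and 197.4 FPKM after DKK2, against 258.7 and 286.6 FPKM after mock treatment (-0.37 ± 0.26). Ipo5 and Ipo7, which import ribosomal proteins, both had DKK2 libraries below both controls. Ipo5 was at 72.1 and 66.7 FPKM after DKK2, against 95.3 and 96.5 FPKM after mock treatment (-0.46 ± 0.24), and its replicates differed little. Ipo7 was at 81.8 and 58.6 FPKM after DKK2, against 86.7 and 109.8 FPKM after mock treatment (-0.49 ± 0.30), a narrow gap between DKK2 replicate 1 and control replicate 1.

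Ipo9, an importin of histones and actin, was at 39.1 and 62.4 FPKM after DKK2, against 79.3 and 71.8 FPKM after mock treatment (-0.60 ± 0.32), with most of the gap in DKK2 replicate 1. Ipo8 was at 21.0 and 22.1 FPKM after DKK2, against 23.0 and 31.0 FPKM after mock treatment (-0.30 ± 0.27). Ipo4, an importin of histones, overlapped between the groups, at 29.7 and 46.1 FPKM after DKK2, against 63.0 and 39.6 FPKM after mock treatment (-0.42 ± 0.37). The transportins of this family recognise other signals. Tnpo1, which imports RNA-binding proteins such as hnRNP A1, had the lowest fold change of the family, at 22.8 and 19.4 FPKM after DKK2, against 29.9 and 38.5 FPKM after mock treatment (-0.66 ± 0.27). Its close relative Tnpo2 was at 11.9 and 15.7 FPKM after DKK2, against 19.4 and 17.1 FPKM after mock treatment (-0.38 ± 0.27).

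Tnpo3, the receptor of SR splicing factors, overlapped, at 71.4 and 59.9 FPKM after DKK2, against 68.1 and 78.4 FPKM after mock treatment (-0.16 ± 0.25). Ipo13, which works in both directions, had a fold change of 0.00 ± 0.29, at 19.5 and 13.5 FPKM after DKK2, against 17.6 and 14.9 FPKM after mock treatment. Ipo11 was at 30.3 and 22.1 FPKM after DKK2, against 24.5 and 29.8 FPKM after mock treatment (-0.06 ± 0.28). In Tnpo3, Ipo11 and Ipo13 alike, DKK2 replicate 2 was the lowest library and DKK2 replicate 1 lay above at least 1 control.

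The 7 exportins all had a lower mean log2 value with DKK2 (median -0.40). In 4 of them both DKK2 libraries lay below both controls, beside 14.8% of all genes tested. Both counts include Xpo4, and the other exportins without overlap were Xpo5, Xpo7 and Xpot. Xpo4, which exports the translation factor eIF5A and the TGF-beta effector Smad3, is the gene on which the set was partly selected, so its values are given without a test. It was at 10.7 and 10.2 FPKM after DKK2, against 18.9 and 18.2 FPKM after mock treatment (-0.77 ± 0.24 SE). The replicates of each group lay close together and the groups far apart. Likeness to Xpo4 was taken as the mean absolute difference between centred log2 values over the 4 libraries. The members most like Xpo4 were Kpna4 (0.071), Nup205 (0.127) and Tnpo1 (0.14). The least like it were Nup88 (0.44), Nup210 (0.446) and Tpr (0.658). Members low in both DKK2 libraries come first by construction, so the ranking describes the pattern and supports nothing further.

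Xpo5, the exporter of microRNA precursors, was at 17.1 and 22.9 FPKM after DKK2, against 28.5 and 29.2 FPKM after mock treatment (-0.52 ± 0.26). Xpo7, a receptor of broad cargo, was at 9.36 and 9.37 FPKM after DKK2, against 12.0 and 12.6 FPKM after mock treatment (-0.36 ± 0.24), with replicates nearly equal in both groups. Xpot, the tRNA exporter, was at 13.4 and 8.99 FPKM after DKK2, against 13.5 and 14.9 FPKM after mock treatment (-0.34 ± 0.29), where DKK2 replicate 1 almost met the control level.

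The other exportins overlapped between the groups and were also the most abundant of their class. Xpo6, the exporter of actin, was at 113.6 and 172.2 FPKM after DKK2, against 202.4 and 168.5 FPKM after mock treatment (-0.40 ± 0.32). Xpo1, the general receptor of leucine-rich export signals, was at 128.4 and 78.2 FPKM after DKK2, against 109.1 and 153.8 FPKM after mock treatment (-0.37 ± 0.36). Cse1l, which returns importin alpha to the cytoplasm, was at 137.7 and 97.2 FPKM after DKK2, against 128.6 and 182.8 FPKM after mock treatment (-0.40 ± 0.33). For Xpo1 and Cse1l the highest library was control replicate 2 and the lowest DKK2 replicate 2, while DKK2 replicate 1 and control replicate 1 lay between in the other order.

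In the Ran system the groups overlapped for each of the 5 genes, where 26.5% of all genes tested had no overlap. The median was -0.29. Ran was at 66.8 and 49.8 FPKM after DKK2, against 80.6 and 65.3 FPKM after mock treatment (-0.33 ± 0.28). Ranbp1, a cofactor of Ran-GTP hydrolysis and the most abundant gene of the group, was at 256.8 and 170.1 FPKM after DKK2, against 283.1 and 230.7 FPKM after mock treatment (-0.29 ± 0.33). Rcc1 was at 48.8 and 33.7 FPKM after DKK2, against 61.0 and 44.8 FPKM after mock treatment (-0.36 ± 0.32). These 3 genes ordered the libraries alike, control replicate 1 highest and DKK2 replicate 2 lowest, with DKK2 replicate 1 a little above control replicate 2. Rangap1 was at 80.3 and 95.8 FPKM after DKK2, against 117.1 and 92.4 FPKM after mock treatment (-0.24 ± 0.27). Nutf2, which brings Ran-GDP back into the nucleus, was listed at only 2.69 and 1.88 FPKM after DKK2, against 2.16 and 1.94 FPKM after mock treatment (0.10 ± 0.34), and its level is uncertain because retrocopies such as Nutf2-ps1 exist.

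The 22 nucleoporins had a median of -0.27, with 19 lower in the mean of log2 values and 11 below both controls (14.8% of all genes tested). The inner ring, which anchors the pore scaffold, held the lowest fold change of all members. Nup188 was at 17.3 and 24.6 FPKM after DKK2, against 35.9 and 47.8 FPKM after mock treatment (-0.97 ± 0.31). The groups were clearly apart, although the replicates of each also differed. Nup205, its structural relative, was at 38.3 and 41.9 FPKM after DKK2, against 56.3 and 58.9 FPKM after mock treatment (-0.51 ± 0.24), and both groups were tight. Nup93, the partner of both, was at 22.2 and 22.9 FPKM after DKK2, against 34.2 and 26.9 FPKM after mock treatment (-0.41 ± 0.25). Nup155 was at 20.1 and 16.7 FPKM after DKK2, against 20.5 and 24.4 FPKM after mock treatment (-0.27 ± 0.26). Only Nup35 of this ring overlapped, at 5.76 and 3.83 FPKM after DKK2, against 5.04 and 4.70 FPKM after mock treatment (-0.04 ± 0.31).

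The Y complex forms the outer rings of the pore, and some of its 6 genes here differed widely between the DKK2 libraries. DKK2 replicate 2 was the lowest library for all 6, and DKK2 replicate 1 was the highest for 3 of them. Nup85 was at 168.3 and 88.4 FPKM after DKK2, against 123.7 and 125.5 FPKM after mock treatment (-0.03 ± 0.38). Nup37 was at 44.0 and 21.1 FPKM after DKK2, against 33.9 and 35.6 FPKM after mock treatment (-0.18 ± 0.40), and Nup43 at 46.9 and 26.6 FPKM after DKK2, against 40.1 and 40.0 FPKM after mock treatment (-0.18 ± 0.34). In these 3 genes the controls agreed closely and the DKK2 libraries lay on either side of them.

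The mean FPKM of Nup85 was higher with DKK2 (128.3, against 124.6 in the controls), while its log2 fold change was -0.03. The median difference between the DKK2 libraries over the Y complex was -0.56 (replicate 2 minus replicate 1). It was -0.42 over the Ran system and 0.07 over all genes tested. Nup160 was at 107.1 and 85.6 FPKM after DKK2, against 104.2 and 168.7 FPKM after mock treatment (-0.47 ± 0.34), where control replicate 2 stood above the other libraries. Nup107 was at 33.4 and 30.3 FPKM after DKK2, against 43.7 and 37.6 FPKM after mock treatment (-0.34 ± 0.24). Nup133 was at 14.7 and 14.2 FPKM after DKK2, against 18.1 and 16.7 FPKM after mock treatment (-0.25 ± 0.24), so that it and Nup107 showed no overlap.

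In the central channel, Nup98, Nup62 and Nup54 carry the phenylalanine-glycine repeats through which receptors pass. Nup98 was at 25.8 and 38.0 FPKM after DKK2, against 38.3 and 49.2 FPKM after mock treatment (-0.46 ± 0.31), with DKK2 replicate 2 only just below control replicate 1. Nup62 was at 44.7 and 50.9 FPKM after DKK2, against 67.9 and 50.9 FPKM after mock treatment (-0.30 ± 0.27), where the replicate 2 libraries were equal to 3 digits. Nup54 overlapped, at 33 and 27.1 FPKM after DKK2, against 42.7 and 31.0 FPKM after mock treatment (-0.28 ± 0.28).

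On the cytoplasmic face, Nup214 was at 39.3 and 55.3 FPKM after DKK2, against 55.8 and 58.9 FPKM after mock treatment (-0.29 ± 0.28). Its partner Nup88 had a higher mean, with 103.8 and 62.9 FPKM after DKK2, against 69.6 and 80.2 FPKM after mock treatment (0.11 ± 0.33). Ranbp2, a large filament protein and SUMO ligase, was at 57.9 and 45.5 FPKM after DKK2, against 51.5 and 69.7 FPKM after mock treatment (-0.22 ± 0.29). Nup88 and Ranbp2 overlapped between the groups, while for Nup214 the gap between DKK2 replicate 2 and control replicate 1 was small.

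The nuclear basket held the single member with both DKK2 libraries above both controls. Tpr, the long coiled-coil protein that builds the basket, was at 287.4 and 174.2 FPKM after DKK2, against 146.2 and 159.2 FPKM after mock treatment (0.55 ± 0.34). DKK2 replicate 1 stood far above the rest, and DKK2 replicate 2 was close to the controls. Its basket partners Nup153 and Nup50 were lower. Nup153 was at 41.7 and 40.1 FPKM after DKK2, against 46.3 and 51.0 FPKM after mock treatment (-0.24 ± 0.24), and Nup50 at 33.9 and 43.5 FPKM after DKK2, against 51.6 and 44.5 FPKM after mock treatment (-0.31 ± 0.26).

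Both membrane nucleoporins overlapped. Nup210, which anchors the pore in the membrane, was at 145.9 and 247.3 FPKM after DKK2, against 182.8 and 165.7 FPKM after mock treatment (0.13 ± 0.35). Pom121 was at 8.45 and 16.7 FPKM after DKK2, against 18.2 and 13.9 FPKM after mock treatment (-0.39 ± 0.39). Here DKK2 replicate 1 was the lowest library for both genes, the reverse of the Y complex.

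**Figure D3:**
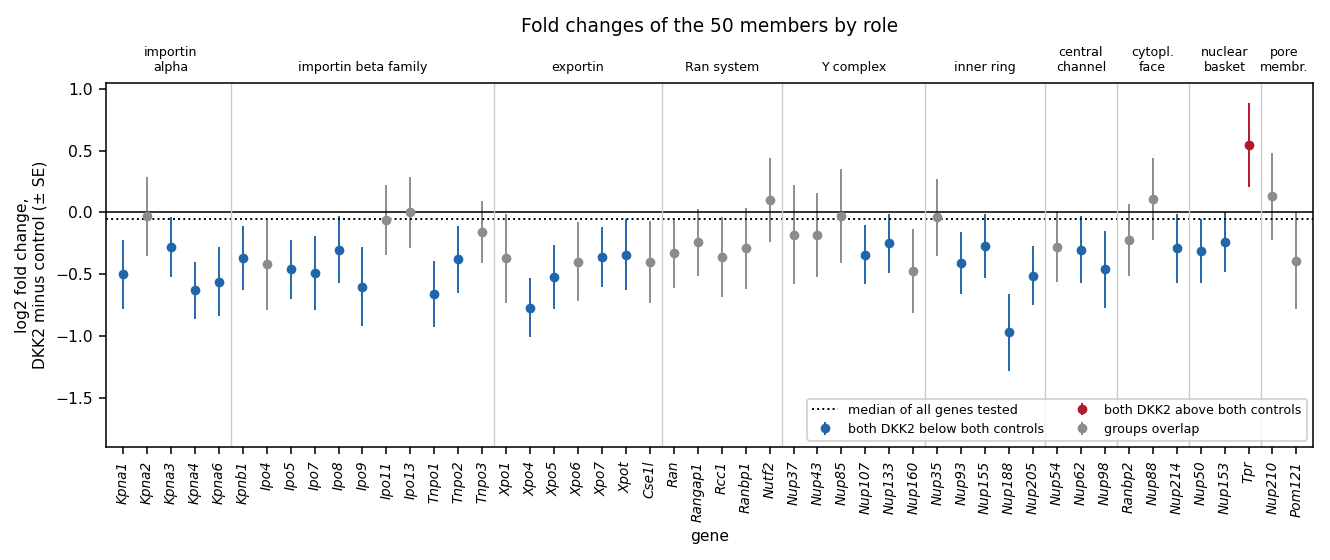
Log2 fold change of each of the 50 members, DKK2 minus control, on the log2(FPKM + 1) scale with bars of ± 1 SE from limma (n = 2 libraries a group), ordered by role. Points are blue where both DKK2 libraries lay below both controls (26 genes), red where both lay above (Tpr) and grey where the groups overlapped, and the dotted line is the median of all genes tested (-0.05).

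Other genes of nuclear transport gave a mixed picture, and 0 of them were called by limma, nor did any (0) of these 4 lists' genes reach an unadjusted p under 0.05. The lists were drawn up with earlier results of these data known, and each is read beside the shares over all genes given above. Of 10 further nuclear pore genes tested, 9 were lower and 4 lay below both controls (median -0.22). The lowest was Tmem48, which encodes the membrane nucleoporin Ndc1, at 21.3 and 16.9 FPKM after DKK2, against 31.1 and 27.4 FPKM after mock treatment (-0.60 ± 0.26). The highest was Nup210l, at 1.55 and 0.858 FPKM after DKK2, against 0.768 and 0.916 FPKM after mock treatment (0.24 ± 0.41).

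Of 9 further import and Ran genes, 4 were lower and 5 higher (median 0.03). Rcc2, a relative of Rcc1 that acts in mitosis, was at 68.3 and 108.3 FPKM after DKK2, against 175.5 and 127.2 FPKM after mock treatment (-0.79 ± 0.35), below both controls in both DKK2 libraries. Snupn, the import adaptor of spliceosomal snRNPs, was at 14.1 and 7.36 FPKM after DKK2, against 7.34 and 8.64 FPKM after mock treatment (0.32 ± 0.37). This list thus did not have the lower median of the members, and the difference between the lists was not tested.

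Export of mRNA uses a separate receptor and no Ran. Of 22 genes of this route 13 were lower and 9 higher (median -0.14), 3 below both controls and 1 above both. Pcid2 was lowest, at 26 and 45.2 FPKM after DKK2, against 54.2 and 42.1 FPKM after mock treatment (-0.47 ± 0.36). Nxf1, the mRNA export receptor itself, was highest, at 63.8 and 42.4 FPKM after DKK2, against 42.9 and 45.7 FPKM after mock treatment (0.23 ± 0.30). Of 19 nuclear lamina and SUMO genes 13 were lower (median -0.09), with 2 below both controls. The lamin gene Lmna was lowest, at 4.16 and 24.9 FPKM after DKK2, against 26.6 and 23.7 FPKM after mock treatment (-1.18 ± 0.78), where DKK2 replicate 1 alone stood low.

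Lists of growth and division were set beside the members. Over all genes tested, 56.4% were lower and 14.8% lay below both controls. Of 34 ribosome biogenesis genes 34 were lower and 20 lay below both controls (median -0.37), and the 24 DNA replication genes had a median of -0.16 (19 lower, 11 below both controls). In each of these lists limma called 0 genes, with 1 at an unadjusted p under 0.05. Orc1, a subunit of the origin recognition complex, was lowest of the replication genes, at 16.2 and 9.6 FPKM after DKK2, against 31.8 and 22.9 FPKM after mock treatment (-1.05 ± 0.35). The 24 mitosis genes, with 0 called and 0 at that unadjusted p, had 12 lower and 12 higher (median 0.00). DKK2 replicate 1 differed from the controls in the mitosis genes by medians of 0.32 and 0.22, and DKK2 replicate 2 by 0.01 and -0.17. Replicate 1 was thus the higher DKK2 library for mitosis genes, as it was for the Y complex. These lists share libraries and normalization with the members, and no test of a difference between lists was made.

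**Figure D4:**
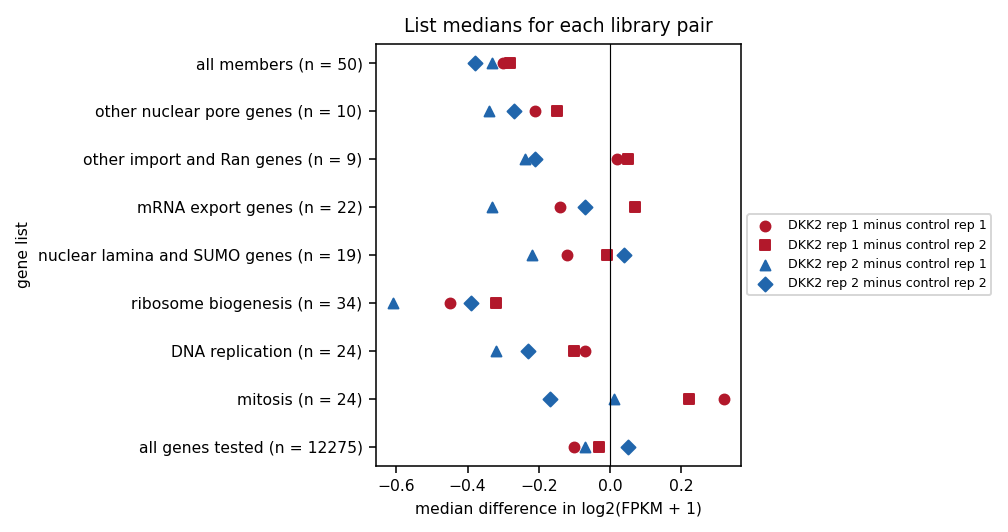
Median difference in log2(FPKM + 1) over each gene list (rows, with the number of genes tested), for each of the 4 pairs of a DKK2 and a control library. The members (-0.28 to -0.38), the other nuclear pore genes, the ribosome biogenesis genes and the DNA replication genes have all 4 pairs below 0. The mitosis genes have 3 of 4 above 0, and the medians over all genes lie between -0.10 and 0.05.

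The DKK2 libraries differed from each other along the base composition of the transcripts. Of the members, 19 were lower in DKK2 replicate 1 than in replicate 2, with a median of 50.4% G and C in their longest coding transcript. The 31 that were lower in replicate 2 (45.2% of all genes tested were) had a median of 45.9%. Lower in replicate 1 were, among others, Ipo4, Ipo9, Xpo6, Nup188, Nup210 and Pom121. Lower in replicate 2 were, among others, Xpo1, Cse1l, Nup37, Nup43 and Nup85.

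Across the 50 members the difference of DKK2 replicate 1 minus replicate 2 had a Pearson r of -0.48 with the GC share (Spearman rho -0.45). Across 9238 genes tested with a coding transcript it had r = -0.47 (rho -0.52). The controls ran the opposite way, with r = 0.60 over the members for replicate 1 minus replicate 2 (rho 0.62) and 0.28 over all these genes (rho 0.47). The DKK2 minus control difference of the members had r = 0.08 with GC (rho 0.07). With log2 transcript length it had r = -0.36 (rho -0.40), beside -0.19 over all these genes (rho -0.21). The points of each correlation share the same libraries, so no p is given.

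Members above and below the median GC share of 47.5% had median fold changes of -0.35 (24 genes) and -0.29 (26 genes). With each library's values adjusted for transcript GC and length, an alternative added after the data were seen, 46 members were lower and 33 lay below both controls, where 21.6% of the 9238 genes did. The members' median was then -0.27.

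**Figure D5:**
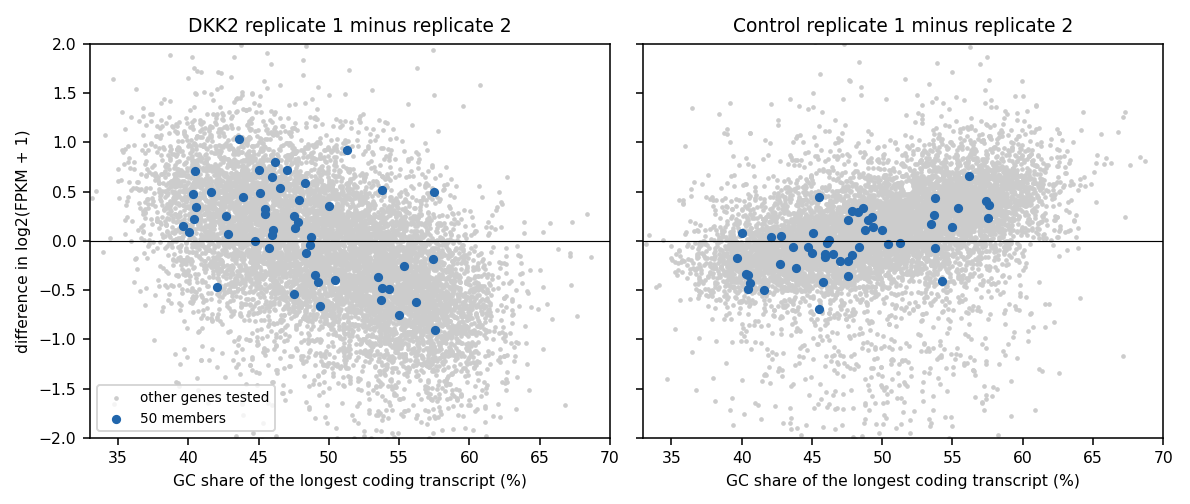
Difference between the replicates of a group in log2(FPKM + 1) (vertical axis) against the GC share of the longest coding transcript (horizontal axis), for DKK2 (left) and control (right), with the 50 members in blue over the other genes tested in grey (points beyond ± 2 are not shown). In the DKK2 panel members of high GC lie mostly below 0 and in the control panel mostly above it.

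Several members lie across other genes, and the sources used here do not state whether counting used strand. In the GENCODE M21 annotation, which belongs to another build, exons of 19 members overlap those of another gene, on the opposite strand in 15. The same annotation was used for gene types and for the length and GC share of transcripts. Tnpo3 overlaps the interferon regulatory factor gene Irf5, which was at 41.8 and 49.6 FPKM after DKK2, against 29.6 and 29.7 FPKM after mock treatment. Ranbp1 overlaps Trmt2a, at 45.5 and 37.9 FPKM after DKK2, against 34.8 and 37.5 FPKM after mock treatment. Rcc1 shares exons with the small nucleolar RNA host gene Snhg3, at 66.7 and 21.6 FPKM after DKK2, against 47.3 and 45.7 FPKM after mock treatment. Nup188, Xpo4 and Tpr are also among the 19. Xpo4 overlaps Gm49361 and Nup188 overlaps Gm28038 on the same strand, and Tpr overlaps Odr4 and Prg4 on the opposite strand. The values of all such members are uncertain to that extent.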

How the data were processed

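RNA-seq was measured in 4 libraries of mouse splenic NK cells, 2 treated with DKK2 and 2 controls. The authors deposited 1 table of FPKM values, per the file headers, although its name speaks of RPKM; all 4 value columns were matched by name and 0 were left out. Libraries were made with a stranded total RNA kit, per the labels' protocols. CASAVA, TopHat2 2.1.0, Cuffdiff 2.1.0, edgeR and build mm9 are named without roles, per the submitters' processing notes. The annotation and strand setting are not given in the sources used here. Read totals are unknown; relative depth is the most frequent ratio (within 0.5%) between libraries of values under 0.3 FPKM, found in 146 to 184 of 1765 to 1821 genes. These depths hold only if no scaling between libraries was applied.

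Values were taken as log2(FPKM + 1), and genes averaging 1 FPKM or more were fitted in limma 3.58.1 (R 4.3.3; lmFit, eBayes with trend; two-sided; Benjamini-Hochberg over all genes tested, threshold 0.05). The fit was tested on simulated data. Alternatives changed the pseudocount, filter, normalization, variance model, gene universe and repeated symbols, left out each library, or added a replicate block. The members, lists, motifs and the rule for named genes were chosen with earlier results of these data known. By that rule, values are given for Xpo4, members without overlap between groups, and the most abundant, highest and lowest of each role. Values of the other members, which the rule left to ranges, were added after they were seen.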

Additional observations from a re-analysis of the deposited data

How the results depend on the processing

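The members' picture kept its direction under every alternative run, with 39 to 47 of the members tested lower. The 39 came without DKK2 replicate 2 (55.4% of all genes tested were lower) and the 47 without DKK2 replicate 1 (50.7%). Changes of filter, variance model or gene universe and the replicate block leave a member's fold change as it is, so those runs could not move it. In runs with all 4 libraries, limma called 0 of the members other than Xpo4. These counts describe a set picked with this contrast in view. The median log2 fold change of the members was -0.27 when libraries were median centred and -0.27 when adjusted for GC and length, and between -0.26 (without DKK2 replicate 2) and -0.36 (without DKK2 replicate 1) when 1 library was left out. Both DKK2 libraries lay below both controls in 19 members when median centred (11.4% of all genes tested) and in 22 after quantile normalization (14%), and 31 to 44 did so when 1 library was left out, where 1 group has a single library and more genes separate (23.8% to 41.8% of all genes tested). Without DKK2 replicate 1 that count was 44 and without DKK2 replicate 2 it was 31. Above both controls lay 1 to 10 members when 1 library was left out, 10 of them without DKK2 replicate 2 (32.6% of all genes tested), and 2 members when adjusted for GC and length (13.8%). Over the whole table, limma called 4 genes as reported, but 0 genes with no filter on low values, 0 among protein-coding genes only, 0 when adjusted for GC and length, and 0 without any 1 library. The sign of the fold change differed for 4 members under median centring, for 1 (Kpna2) under quantile normalization, for 1 (Nutf2) when adjusted for GC and length, and for 1 to 8 when 1 library was left out.

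With a replicate block the count over the whole table was 8 genes, with 0 of these members among them. The labels do not say that a replicate number marks a shared animal or day, so the numbers were not taken to pair the libraries. The deviations of same-numbered libraries from their group means had a correlation of 0.0117 over 12275 genes. With 2 libraries a group, crossed numbers give the same value with its sign turned (-0.0117), so this value cannot decide whether libraries were paired. The FPKM values carry no counts, so the counting error behind a low member such as Nutf2 is unknown.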
